A study of Oryza sativa with 6 samples.

Results

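In rice roots, 136 loci had a higher signal in ferulic acid (FA)-treated than in water-treated seedlings on every array, after short as well as after long exposure. They were chosen from 29695 loci on the array by their measured values. A locus was kept if at least 1 of its probes had a processed FA signal of at least 100 on all 6 arrays and a log2 ratio of FA over control of at least 0.8 on all 6. Because the ratios chose the loci, the ratios of single members are given below as a description with no test against 0. Tested were the difference between the exposures and, for whole gene lists, the ratios of all their loci, and the members among those are named beside the counts. Of the 16090 loci with that FA signal on all arrays, the 136 loci made up 0.845%, and of 23554 probes with that signal 0.62% passed the rule. The same rule turned to lower ratios, with the signal limit on the control channel, kept 18 of 16229 loci, or 0.0799% of the probes.

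Seedlings of Oryza sativa cv. TN-67, 6 days old, were exposed to 50 ppm FA, and the control seedlings of the same age and cultivar received water for the same times. The 3 arrays of short exposure held RNA of 1 h and 3 h, pooled into 1 sample, and those of long exposure, also 3, held RNA taken at 24 h. Each array was 1 biological replicate and carried an FA sample in Cy5 (red) beside a control sample in Cy3 (green). As the dyes were never swapped, a dye effect and an FA effect cannot be told apart in a ratio that is positive on all 6 arrays, whereas a dye effect that is the same on every array drops out of short minus long. In the short samples a change at 1 h and a change at 3 h cannot be told apart.

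The RNA came from root tips according to the methods. Probes of the 5 root markers (RCc3, Lsi1, Lsi2, Nramp5 and AMT1;2) were well above background in both channels of all 6 arrays, while the probes of the 4 leaf markers (RBCS2, RBCS4, CAB2R and CAB1R) were well above background in the control channel of 0 to 3 arrays. In the FA channel this was 0 to 6 arrays, with the highest count for probes of RBCS2, and its part in the results was not tested. On the 6 arrays 68.2% to 75.5% of probes were well above background in the control channel and 72.8% to 77.2% in the FA channel, and no spot was saturated. In bulk root RNA, more RNA per cell and more cells of a type cannot be told apart. Arrays of short exposure lay on 2 slides and arrays of long exposure on a slide of their own, so that slide and exposure cannot be told apart.

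FA is a hydroxycinnamic acid that plants make on the way to lignin and esterify to cell wall sugars, and it inhibits root growth when released into soil. Plant cells handle such phenolics and other foreign compounds by oxidation or hydrolysis, then by conjugation to glutathione, sugars or acyl groups, and then by transport into the vacuole or wall. Glutathione S-transferases (GSTs), UDP-glycosyltransferases and acyl transferases carry out the conjugation, and in plants the tau class of GSTs is the large one. Chitinases and barwin-type proteins belong to the pathogenesis-related proteins, which act on or bind chitin of fungal walls.

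Of the 136 loci, 88 had a description that names a function or a domain, and 48 did not. The mean log2 ratio of a locus ranged from 0.87 to 5.85 after short exposure, with a median of 1.62, and from 0.87 to 3.46 after long exposure, with a median of 1.43. The middle of the distribution lay between 1.34 and 2.14 (quartiles) after short and between 1.11 and 1.73 after long exposure. The SD over the 3 arrays had a median of 0.25 after short and of 0.24 after long exposure. A mean of at least 2-fold at both exposures was found for 117 loci, and 65 loci reached 2-fold on every array. A mean of at least 8-fold was reached by 18 loci after short exposure and by 1 after long exposure. The latter was Os03g0643700, whose control channel stayed under the limit for well above background on all 6 arrays.

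**Figure D1:**
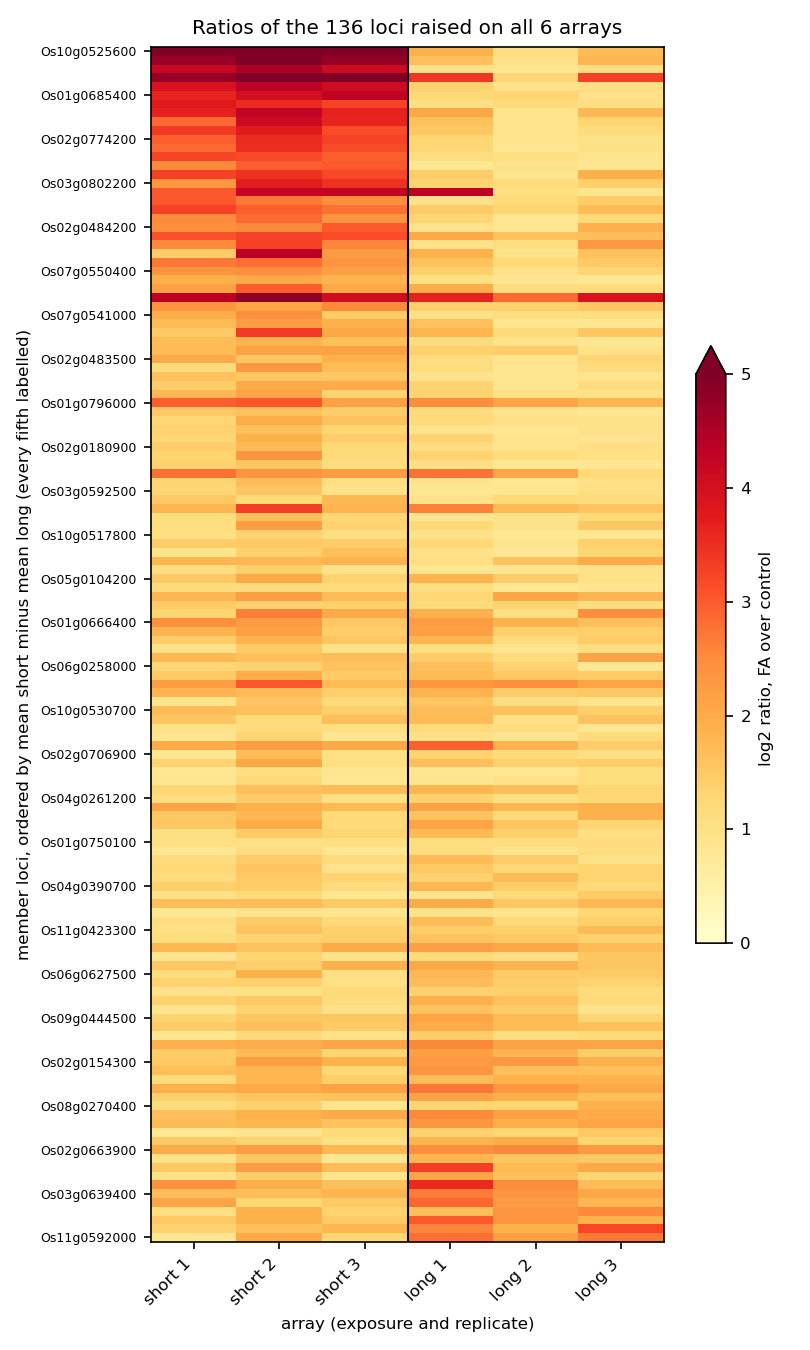
Log2 ratio of FA over control (colour) for each of the 136 loci (rows, ordered by mean short minus mean long, labelled at intervals) on each of the 6 arrays (columns, exposure and replicate). The highest ratios stand at the top of the 3 short columns, where 18 loci had a mean of at least 8-fold, and values above 5 share the darkest colour.

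The 3 arrays of an exposure were not level with each other. The median ratio over the 136 loci was 1.52, 1.82 and 1.55 on short replicates 1, 2 and 3. It was 1.56, 1.22 and 1.33 on long replicates 1, 2 and 3. Short replicate 2 gave the highest of the 6 ratios for 60 loci, and long replicate 2 gave the lowest for 44 loci.

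GSTs formed the largest described family, with 8 loci. Of these, 7 were in the study's family list and Os10g0531400 was one by its description only. Os10g0525600 (GSTU22 in the list) had log2 ratios of 4.99, 5.57 and 5.02 after short exposure and of 1.88, 1.11 and 1.71 after long exposure. Its mean was 36.6-fold after short and 2.96-fold after long exposure, and the short arrays all lay far above the long ones. Os10g0481300 (GSTU47) had ratios of 4.72, 5.02 and 4.75 after short and of 1.66, 0.99 and 1.80 after long exposure, or 28.4-fold and 2.80-fold on average. For both genes long replicate 2 was the lowest array, and the exposures did not overlap.

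On none of the 6 arrays did Os03g0643700 (GSTU44) have a control signal well above background, so that its ratios have no exact size. The deposited log2 ratios were 4.35, 4.86 and 4.05 after short and 3.64, 2.85 and 3.90 after long exposure. Set against the lowest signal that was well above background on each array, after loess and between-array normalization, FA was at least 4.26-fold higher after short and at least 2.42-fold higher after long exposure. Such bounds come from single channels of arrays without swapped dyes and are open to dye bias.

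The other GST loci had lower mean ratios after short exposure. Os10g0527800 (GSTU12) measured 2.84, 3.52 and 3.16 after short and 1.29, 0.84 and 1.03 after long exposure. A brighter further probe of this locus had means of 2.86 after short and 0.65 after long exposure. Os10g0530900 (GSTU50) measured 2.53, 2.83 and 2.35 after short and 1.27, 0.81 and 1.20 after long exposure. Os10g0531400 measured 1.92, 2.01 and 1.85 after short and 1.06, 0.88 and 0.82 after long exposure. In all 3 genes the lowest short array was above the highest long array. Their neighbour Os10g0530700 (GSTU49) differed from them, with 1.74, 1.65 and 1.42 after short and 1.69, 1.64 and 1.39 after long exposure. In this gene the exposures overlapped, and the difference of 0.03 had an adjusted p of 0.858. Os01g0950300 (GSTU42), which was named after its values were seen, had means of 1.15 ± 0.31 and 1.00 ± 0.13 (SD, n = 3).

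The whole GST list held 74 loci in the copy used here. After short exposure 24 of 57 tested loci were called higher and 0 lower by limma (adjusted p under 0.1 and a mean of at least 2-fold), against 1347 higher and 492 lower of 19160 tested loci and against 6.83% and 2.27% of all tested probes. After long exposure 8 of 59 were called higher and 2 lower, against 353 and 114 of 18802 loci and 1.65% and 0.528% of probes. The counts after long exposure moved with the test and with single arrays, and higher calls numbered 4 with the methods' t-test and 5 without long replicate 3. Counts over all loci at these 2 settings are not given here. Each locus of the list took its brightest tested probe. The median ratio of the list was 0.71 after short and 0.27 after long exposure, and it was -0.09 and -0.03 over all tested loci. The 7 listed members were all among the 24, and their selection used the same ratios, while 17 GSTs called higher after short exposure were not members. Among the 8 called after long exposure, 5 were members and Os10g0525400, Os10g0527400 and Os10g0530600 were not. The member genes on chromosome 10 lie in a cluster of related GST genes, and whether a probe also binds transcripts of its neighbours was not tested.

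Acyl transferases supplied 6 loci, 5 of which were described as transferase family proteins, the name under which plant acyl-CoA-dependent acyl transferases are annotated. Os08g0112200 had the highest mean ratios of them, with 3.65, 4.28 and 3.65 after short and 2.05, 0.92 and 1.77 after long exposure. Os02g0484200 measured 2.46, 2.52 and 3.00 after short and 0.92, 0.85 and 1.90 after long exposure. Its neighbour Os02g0483500 measured 1.99, 1.57 and 1.86 after short and 1.10, 0.86 and 1.30 after long exposure. In these 3 genes no long array reached the lowest short array.

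The pair of acyl transferases on chromosome 6 was less separated. Os06g0185300 measured 1.46, 1.85 and 1.57 after short and 1.80, 1.15 and 1.46 after long exposure. Os06g0185500 measured 1.49, 3.36 and 2.05 after short and 1.80, 1.19 and 1.54 after long exposure, and its short mean rested on replicate 2. In both genes the exposures overlapped. Os06g0710700, described as a benzoyl transferase and named after its values were seen, had one of the highest control signals (6774 to 10675) and means of 1.74 ± 0.09 and 0.97 ± 0.18 (SD, n = 3).

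**Figure D2:**
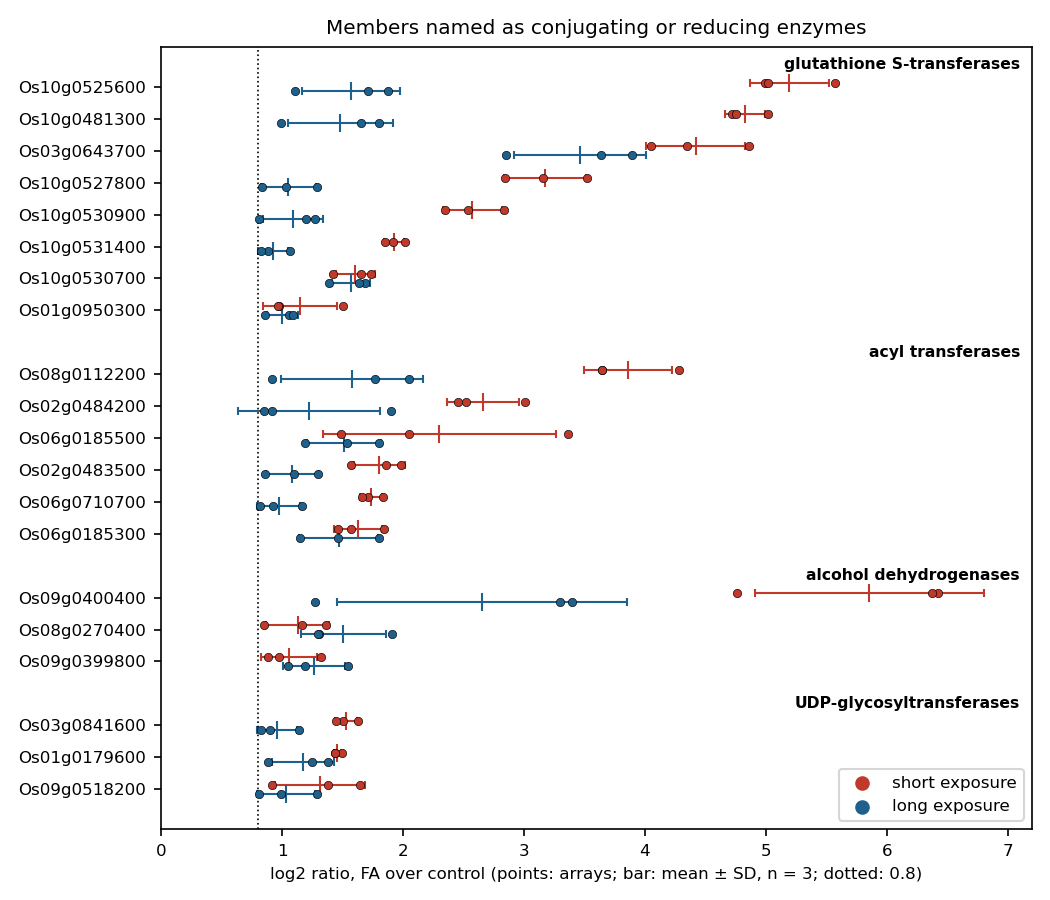
Log2 ratio of FA over control (horizontal axis) for the members described as GSTs, acyl transferases, alcohol dehydrogenases and UDP-glycosyltransferases (rows), with short exposure in red and long exposure in blue. Points are arrays, bars are mean ± SD (n = 3) and the dotted line is the limit of 0.8. Os10g0525600 and Os10g0481300 have wide gaps between the exposures, and Os10g0530700 has none.

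Os09g0400400, a cinnamyl alcohol dehydrogenase, had a mean deposited ratio after short exposure above that of every other member. Enzymes of this name reduce cinnamyl aldehydes to the alcohols that build lignin. Its log2 ratios were 4.76, 6.42 and 6.38 after short exposure and 3.40, 1.27 and 3.30 after long exposure, with means of 5.85 ± 0.95 and 2.65 ± 1.20 (SD, n = 3). Long replicate 2 was far below the other long arrays, and the exposures did not overlap. Its control signal was low, from 12.9 to 43.7 on the short and from 54.9 to 118 on the long arrays, and well above background on 4 of 6 arrays. With normexp background correction and loess its means were 4.11 and 2.13, and after short exposure it then lay below Os10g0525600, which had 4.78.

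Its neighbour Os09g0399800, described as a mannitol dehydrogenase, belongs to the same enzyme family. It had the highest control signal of all 136 loci, from 10347 to 16341, and ratios of 0.88, 1.32 and 0.97 after short and of 1.19, 1.05 and 1.55 after long exposure. Os08g0270400, a sinapyl alcohol dehydrogenase that was named after its values were seen, had means of 1.13 ± 0.26 and 1.51 ± 0.35 (SD, n = 3). In neither gene were the exposures apart.

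The 3 UDP-glycosyltransferases, which attach sugars to small molecules, had mean ratios from 1.31 to 1.53 after short and from 0.96 to 1.17 after long exposure. Os03g0841600 measured 1.51, 1.63 and 1.45 after short and 1.14, 0.90 and 0.83 after long exposure, with no overlap. Os01g0179600 measured 1.44, 1.50 and 1.44 after short and 1.25, 0.89 and 1.38 after long exposure, also with no overlap. Os09g0518200 measured 0.91, 1.38 and 1.64 after short and 0.99, 0.81 and 1.29 after long exposure, and here the exposures overlapped.

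Among enzymes that oxidise or activate substrates, the cytochrome P450 Os11g0151400 had a level ratio at both exposures. It measured 2.09, 1.89 and 1.74 after short and 2.14, 1.81 and 1.93 after long exposure, and the difference of -0.05 had an adjusted p of 0.779. Os03g0130100, an AMP-binding protein of the family that includes 4-coumarate:CoA ligases, measured 2.00, 2.25 and 2.02 after short and 2.94, 1.84 and 1.46 after long exposure. Its means were 2.09 and 2.08, with a wider spread after long exposure. Os09g0511600, a family 1 glycoside hydrolase, a family that includes the beta-glucosidases, measured 2.87, 4.12 and 3.63 after short and 1.61, 0.89 and 1.32 after long exposure.

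All 3 chitinases among the members had mean ratios above 1.4 at both exposures, but their arrays scattered. The acidic class III chitinase Os01g0660200 measured 1.52, 2.24 and 1.69 after short and 3.32, 1.75 and 2.01 after long exposure. The endochitinase Os06g0726200 measured 2.16, 2.98 and 2.03 after short and 1.94, 1.13 and 1.15 after long exposure. Os10g0416500, described as chitinase 1, measured 3.04, 4.22 and 4.25 after short and 4.33, 1.06 and 0.91 after long exposure. In this last gene the long mean of 2.10 ± 1.93 (SD, n = 3) rested on replicate 1, where it was the highest of the 6 arrays. Its control signal was well above background on 2 arrays only and on no short array, so that the short ratio is a bound, at least 3.33-fold. Of the study's list of family 18 glycoside hydrolases (yieldins), the family of class III chitinases, 3 of 10 tested loci were called higher after short and 1 of 10 after long exposure, with 0 lower in either, against the 1347 of 19160 and 353 of 18802 of all loci given above. The list holds the member Os01g0660200, its median ratios were 0.48 and 0.11, and the call after long exposure was lost with the methods' t-test.

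Os11g0591800 and Os11g0592000 are adjacent and were described as the wound-induced protein WIN2 and as barwin, proteins of the chitin-binding pathogenesis-related kind. Os11g0591800 measured 1.31, 2.63 and 2.02 after short and 1.91, 1.06 and 2.44 after long exposure, with overlap. Os11g0592000 measured 0.83, 2.02 and 1.27 after short and 2.80, 2.20 and 2.68 after long exposure, with every long array above every short one. It was the only member called lower after short than after long exposure.

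Several members code for regulators. WRKY and MYB proteins are plant transcription factor families, and VQ proteins bind WRKY factors. WRKY31 (Os01g0750100) had the most even ratios, with 1.05, 1.00 and 1.04 after short and 1.12, 1.13 and 1.15 after long exposure, while WRKY30 (Os08g0499300) measured 1.54, 1.98 and 1.19 after short and 2.09, 1.58 and 1.30 after long exposure. The VQ protein Os01g0278000 measured 1.47, 1.35 and 1.37 after short and 1.19, 1.31 and 1.09 after long exposure. In the member probe of WRKY31 the long arrays lay above the short ones, and in the VQ gene the order was the opposite. In WRKY30 the exposures overlapped. The brightest further probe of WRKY31 had means of -0.05 after short and -0.49 after long exposure, and another had 0.67 and 0.57.

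The Myb-domain genes Os06g0112700 and Os06g0258000 had means of 1.54 ± 0.58 and 1.41 ± 0.15 after short and of 1.24 ± 0.29 and 1.28 ± 0.44 after long exposure (SD, n = 3). Os01g0685400, described as Blind, a Myb-type factor known from tomato for its part in shoot branching, stood far above both after short exposure and had a slightly lower mean than both after long exposure. It measured 3.62, 4.01 and 4.28 after short and 1.25, 1.33 and 0.99 after long exposure. Os01g0955100, a calmodulin-like calcium sensor in the study's calmodulin list and described as a regulator of gene silencing, measured 3.78, 3.56 and 3.26 after short and 1.00, 1.19 and 1.04 after long exposure. Both had arrays of each exposure close together and a wide gap between the exposures.

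Os11g0506800, with an IQ domain that binds calmodulin, measured 3.01, 2.68 and 2.48 after short and 0.99, 1.22 and 1.45 after long exposure. Receptor-like kinases, which carry signals from outside the cell, supplied Os07g0550400 with 2.39, 2.48 and 2.18 after short and 1.40, 0.97 and 1.28 after long exposure, and Os07g0541000 with 1.94, 2.45 and 1.44 after short and 1.00, 1.10 and 1.09 after long exposure. In all 3 genes every short array was above every long one. Of the study's protein kinase list, 66 of 683 tested loci were called higher and 30 lower after short exposure, and 2 of 678 higher and 9 lower after long exposure. Over all loci these were 1347 higher and 492 lower of 19160 and 353 higher and 114 lower of 18802, and the median ratio of the list was -0.05 at both exposures. With normexp and loess the list's lower calls after short exposure numbered 8, and the count over all loci at that setting is not given here. A single locus of that list, Os07g0541000, was a member.

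Descriptions of phenylalanine ammonia-lyase, bHLH, NAC, thioredoxin, peroxidase, beta-1,3-glucanase and protein phosphatase 2C, and the study's lists of alternative oxidases, jasmonate, abscisic acid, sulfate permease and family 17 glycoside hydrolase genes, each held 0 members. The lists held, in this order, 4, 34, 51, 14 and 60 loci on the array, and 0.845% of loci with sufficient FA signal were members. A count of 0 in lists of this size cannot show an absence. For the descriptions it cannot either, as 48 members had no named function. Of these 5 lists, alternative oxidase had 4 of 4 tested loci called higher after short and 0 of 3 after long exposure. The jasmonate list had 7 of 23 and 0 of 19, the abscisic acid list had 8 of 35 and 0 of 32, and the sulfate permease list had 4 of 10 and 0 of 10. The list of family 17 glycoside hydrolases had 5 of 45 and 4 of 43. Over all tested loci the higher calls were 1347 of 19160 and 353 of 18802, and the lower calls 492 and 114. The abscisic acid, sulfate permease and family 17 lists each had 1 lower call after short and 1 after long exposure. The alternative oxidase and jasmonate lists had 0 lower calls. The median ratios after short and long exposure were 1.96 and -0.05 for alternative oxidase, 0.58 and -0.11 for jasmonate, 0.16 and -0.05 for abscisic acid, 0.63 and -0.15 for sulfate permease and -0.04 and 0.09 for the hydrolases.

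Short minus long was tested for 135 of the 136 loci in a fit across 28398 probes. Higher ratios after short exposure were called for 25 members (18.5%), beside 5.76% of all tested probes, and a lower ratio for 1 member (0.741%), beside 2.5%. These shares cannot be compared with each other, because the rule used the same 6 ratios, and ratios past the calling limits were more frequent after short than after long exposure over all probes (6.83% against 1.65% higher). For the other 109 the difference did not pass the threshold. At an unadjusted p under 0.05, 45 were higher and 12 lower, but the shares of all tested probes at that limit were not counted. The median difference over the members was 0.14, and over all tested probes -0.04. A difference of under 0.5 in size was found for 80 members, also without a count over all tested probes. The rule set the same lower limit for both exposures and kept out any gene whose ratio was near 0 at either one. Os10g0419600 was not tested, because flagged spots left it with a value on 4 arrays, too few after 1 of the exposures.

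Counted by array, from the same ratios that the rule used, all 3 short arrays lay above all 3 long arrays for 47 members (34.6%), beside 23.6% of tested probes. All long arrays lay above all short arrays for 9 members (6.62%), beside 29.5%. In the other 80 members the exposures overlapped, as they did in the rest of the tested probes, a share that was not counted separately.

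**Figure D3:**
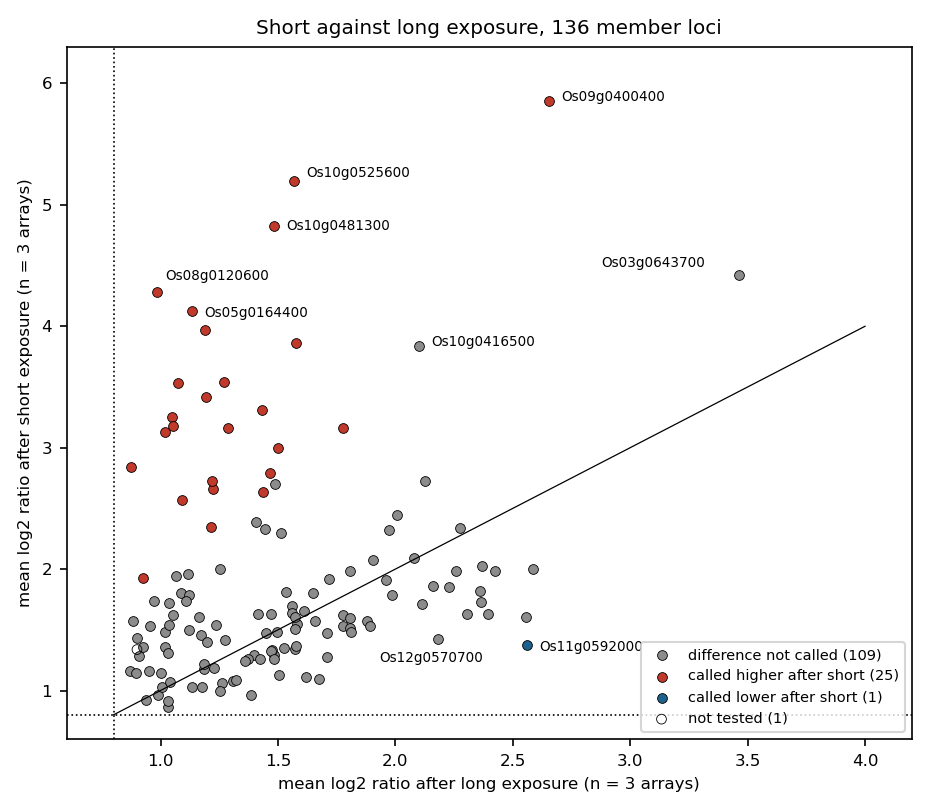
Mean log2 ratio of FA over control after short (vertical axis) and after long exposure (horizontal axis), each over 3 arrays, for the 136 loci. Red points are the 25 loci called higher after short exposure and the blue point is the 1 called lower, grey points were not called, the open point was not tested, the solid line marks equal means and the dotted lines mark 0.8.

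The largest differences came from genes with unlike roles. Os10g0525600, the GST, was higher after short exposure by 3.63 ± 0.24 (SE) on the log2 scale (adjusted p 0.000123), and Os10g0481300 by 3.34 ± 0.21 (adjusted p 0.000114). The aldolase gene Os08g0120600, whose enzyme splits a sugar bisphosphate in glycolysis, measured 4.18, 4.53 and 4.12 after short and 0.99, 0.87 and 1.09 after long exposure. Its difference was 3.29 ± 0.13 (adjusted p 3.42e-05). The cinnamyl alcohol dehydrogenase Os09g0400400 had a difference of 3.20 with a far larger SE of 0.67 (adjusted p 0.0101), and of 1.97 with normexp and loess. Os05g0164400, a locus with no hit in its description, measured 3.91, 4.37 and 4.10 after short and 1.36, 0.98 and 1.06 after long exposure, a difference of 3.00 ± 0.15 (adjusted p 5.65e-05).

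Another 8 members differed by more than 2 on the log2 scale, namely Os01g0685400 (Blind, 2.78), Os01g0955100 (2.46), the acyl transferase Os08g0112200 (2.28), the glycoside hydrolase Os09g0511600 (2.27), the GDSL lipase Os06g0725100 (2.22), Os02g0774200 (2.20), the GST Os10g0527800 (2.12) and the AAA ATPase Os07g0192000 (2.11). Their adjusted p ranged from 5.7e-05 to 0.00227. Os06g0725100 measured 3.37, 3.74 and 3.15 after short and 1.54, 0.91 and 1.14 after long exposure. Os07g0192000 measured 3.24, 3.17 and 2.97 after short and 1.11, 1.06 and 0.89 after long exposure, and Os02g0774200, a conserved hypothetical protein, measured 2.96, 3.55 and 3.25 after short and 1.29, 0.88 and 0.98 after long exposure. In these 3 genes the lowest long array lay between 0.88 and 0.91, close to the limit of 0.8.

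The remaining 12 called members differed by 1.00 to 1.97, with adjusted p from 0.00017 to 0.0304. They included Os01g0639600 (1.97), Os07g0410300 (1.88), Os03g0802200 (1.87), Os09g0364400 (1.38) and Os09g0362800 (1.33), none of which has a named function. With a named domain they included Os11g0506800 (1.50), Os01g0893700 with a carbohydrate-binding module (1.50), the GST Os10g0530900 (1.48), the acyl transferase Os02g0484200 (1.44), the F-box protein Os02g0671100 (1.20), the kinase Os07g0550400 (1.14) and the GST Os10g0531400 (1.00). Os10g0531400 stood at the 2-fold limit, and its call was lost with normexp and loess (0.88), with the median of its probes (0.94), and without short replicate 2, long replicate 2 or long replicate 3. With normexp and loess the calls of Os02g0484200 (0.76) and Os07g0550400 (0.61) were lost too, and the difference of Os03g0802200 was 1.23. The call of Os09g0362800 was lost with no signal filter (adjusted p 0.111). Os09g0364400 had the highest long mean of the 12, with 2.02, 1.64 and 1.67, beside 3.09, 3.25 and 3.14 after short exposure.

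Some differences did not pass. Os06g0726200 differed by 0.98 (adjusted p 0.0436), just under the 2-fold limit. Os10g0416500, the chitinase with 1 high long array, and the GST Os03g0643700 were not called, and their differences have no exact size because control signals were not well above background after short exposure. Os02g0483500 differed by 0.72 (adjusted p 0.0103) and Os03g0841600 by 0.57 (adjusted p 0.00719), which were differences past the p limit but smaller than 2-fold.

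In the other direction Os11g0592000, the barwin gene, was lower after short than after long exposure by -1.18 ± 0.30 (SE, adjusted p 0.0214). Without short replicate 1, its lowest array, it was not called. The next were Os01g0803900 (-0.95, adjusted p 0.0503), Os10g0445700 (-0.76, adjusted p 0.0664), the metallothionein Os12g0570700 (-0.75, adjusted p 0.0702), which codes for a metal-binding cysteine-rich protein, and the F-box protein Os02g0159800 (-0.68, adjusted p 0.123). Os12g0570700 measured 1.06, 1.87 and 1.35 after short and 1.66, 2.36 and 2.52 after long exposure. Os01g0803900 measured 1.37, 1.66 and 1.80 after short and 2.56, 1.89 and 3.21 after long exposure, with no overlap. Its other member probe had means of 2.13 after short and 2.07 after long exposure, so that the lower ratio after short exposure rested on 1 of its probes, and with the median of both probes the difference was -0.44 (adjusted p 0.321). In the other 8 loci with several member probes these differed by 0.16 at most after short and by 0.33 at most after long exposure.

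A difference between ratios can come from either channel. After loess and between-array normalization, the FA channel of the 25 genes was higher on all short than on all long arrays in 21 (23.6% of tested probes), overlapped in 3 and was lower in 1, Os02g0484200. Their control channel was higher on all long arrays in 12 (19% of tested probes), overlapped in 12 and was lower in 1 (13.1%). The median difference of short minus long was 1.48 in the FA channel and -0.47 in the control channel, and over all tested probes -0.01 and -0.04. The 25 genes were called on the ratio of these same channels, so their counts and medians cannot be compared with those of all probes. The share of all probes with a lower FA channel on the short arrays was not counted. In Os10g0525600 the FA channel differed by 2.95 and the control channel by -0.39. In Os08g0120600 these were 1.61 and -1.42, and its processed control signal was 251 to 316 on the short and 932 to 1008 on the long arrays. In Os02g0484200 both channels were lower in the short samples, by -1.17 for FA and by -1.93 for the control, so that its higher ratio went with a lower control signal.

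Other members were picked out for a high ratio on every array, whether or not the exposures differed. The 10 loci with the highest lowest ratio included Os03g0643700, whose lowest deposited ratio was 2.85 against a control not well above background. Os11g0169700, a hypothetical protein, measured 1.93, 2.03 and 2.13 after short and 2.72, 2.31 and 2.07 after long exposure. Os01g0261000, a transcript with no protein described, measured 1.90, 1.96 and 2.10 after short and 2.54, 2.13 and 2.10 after long exposure. The lowest arrays of these genes were 1.93 and 1.90.

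The others of these 10 were Os01g0796000 (lowest 1.81), Os02g0663900 (1.76), the P450 Os11g0151400 (1.74), Os09g0480200 (1.73), Os01g0280200 (1.68), Os03g0639400 (1.68) and Os10g0538200 (1.65). Os02g0663900, described as a phosphoribosyltransferase, measured 1.97, 2.21 and 1.76 after short and 2.44, 2.56 and 2.27 after long exposure. Its control signal was well above background on 1 of 6 arrays and on no long array, where FA was at least 2.49-fold higher. The deposited ratios of this probe were all higher on the long than on the short arrays, but most lack a measured control. A brighter further probe of the locus had the opposite order, with means of 1.02 after short and 0.59 after long exposure. Os03g0639400, an invertase or pectin methylesterase inhibitor, measured 1.69, 1.68 and 1.83 after short and 2.67, 2.38 and 2.04 after long exposure, with no overlap and an adjusted p of 0.0202 for a difference of -0.63. Os10g0538200 and its neighbour Os10g0537800, both pepsin-type aspartic peptidases, scattered more, with 2.44, 1.92 and 1.65 against 3.56, 2.52 and 1.68 in the former and 2.78, 2.33 and 2.21 against 2.76, 2.06 and 1.20 in the latter. The sugar transporter Os07g0582500 had means of 1.26 ± 0.18 and 1.37 ± 0.40 (SD, n = 3).

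The control signals of the members were low. The mean processed control signal had a median of 149 over the members and of 606 over all tested probes of loci. These medians cannot be compared, because the control signal is the denominator of the ratio by which the members were chosen. It was under 100 in 51 members, from 100 to 1000 in 71 and above 1000 in 14. The FA signal was well above background on all arrays in all 136 members, and the control signal on all arrays in 111, on some in 24 and on none in 1. The part of the low control signal in these ratios was not tested. A change of the background correction, given next, cannot decide it. The offset of 50 used there is added to both channels and by itself makes the ratios of dim spots smaller.

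With normexp background correction and loess, 82 of the 136 loci still passed the rule, and all 136 were positive on all 6 arrays, with a lowest ratio of 0.56. The rule had chosen the loci for raised ratios on these same arrays, so that their sign is no separate evidence. Among the 51 members with a control signal under 100, 30 still passed and the median mean ratio was 1.14 after short and 1.13 after long exposure, against 1.61 and 1.71 with the deposited ratios. Among the other 85, 52 still passed, with 1.45 and 1.09 against 1.63 and 1.20. Of the 25 genes called higher after short exposure, 5 were in the former group and 20 in the latter. Most of the 25 no longer passed the rule with normexp and loess, among them Os01g0685400, Os07g0192000, Os10g0530900 and Os11g0506800. The gene called lower, Os11g0592000, no longer passed either.

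**Figure D4:**
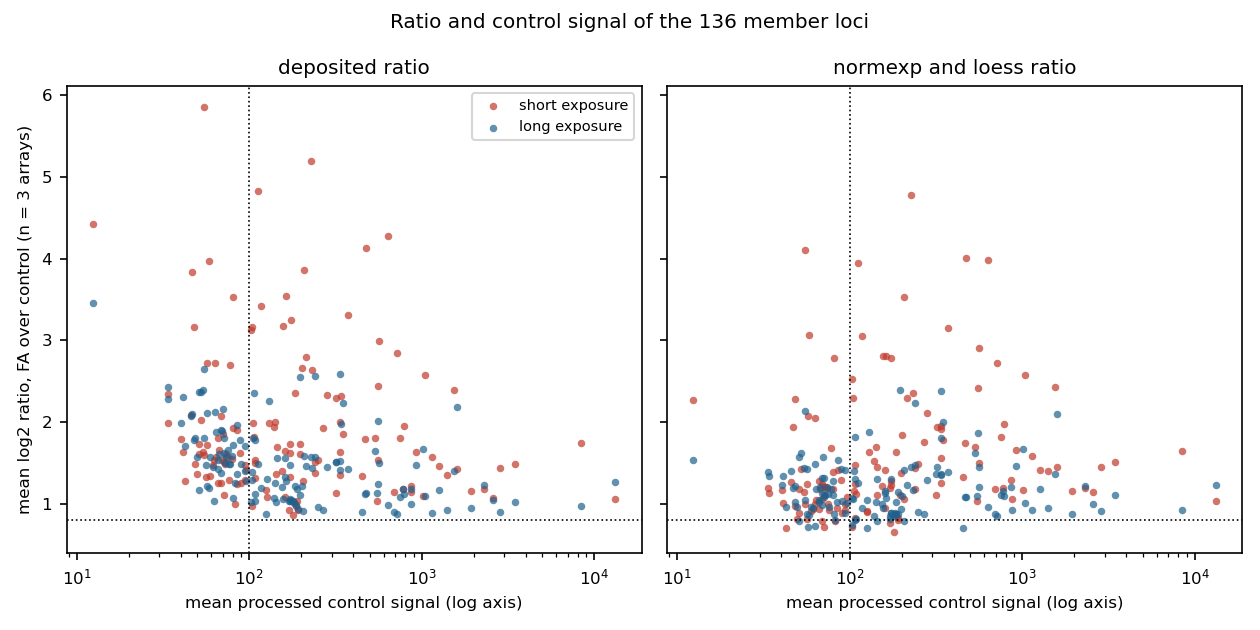
Mean log2 ratio of FA over control (vertical axis, 3 arrays per exposure) against the mean processed control signal (horizontal log axis) for the 136 loci, with the deposited ratios on the left and the ratios after normexp and loess on the right. Red is short and blue is long exposure, and the dotted lines mark a signal of 100 and a ratio of 0.8. Below 100 the ratios on the right are lower than those on the left, and the offset used on the right lowers ratios of dim spots by itself.

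Other probes of the same loci gave a second reading. Of the members, 36 had 64 further probes, and 43 of these, at 24 loci, had an FA signal of at least 100 on all arrays. Of the 43, 36 were above 0 on all 6 arrays and 19 had a mean of at least 0.8 at both exposures. The 3 further probes of Os09g0511600 had means of 3.35 to 3.61 after short and of 1.06 to 1.14 after long exposure, beside 3.54 and 1.27 of its member probe. Those of Os10g0530900 had 2.44 to 2.67 and 0.78 to 1.02, and that of Os08g0120600 had 4.29 and 0.63.

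In 7 of the 43 at least 1 array was not above 0. For WRKY31 the brightest further probe had means of -0.05 after short and -0.49 after long exposure, and another had 0.67 and 0.57, beside 1.03 and 1.13 of the member probe. A further probe of Os12g0181600, an amino acid transporter, had 2.45 and -0.20, and one of its neighbour Os12g0183100, a keto acid dehydrogenase subunit, had 1.02 and -0.30. In these 3 genes no further probe reached a mean of 0.8 after long exposure. In Os06g0726200, 6 of 7 further probes had means of at least 2.07 after short and of at least 0.77 after long exposure, and the brightest one had 0.12 and 0.07.

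A group of 5 members shared 1 source. On the array 23 probes, each under the name of a different locus, were designed on the same transcript accession, and 5 of them passed the rule (Os01g0332000, Os01g0514800, Os02g0124000, Os02g0485100 and Os05g0587500). All 23 were positive on all 6 arrays, with means from 0.57 to 1.02 after short and from 0.72 to 1.14 after long exposure. Their medians by array were 0.80, 1.05 and 0.82 after short and 0.91, 0.90 and 1.13 after long exposure. The medians were highest on short replicate 2 and long replicate 3, and the 5 loci are not 5 independent measurements. With them counted once, the members were 132 loci.

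**Figure D5:**
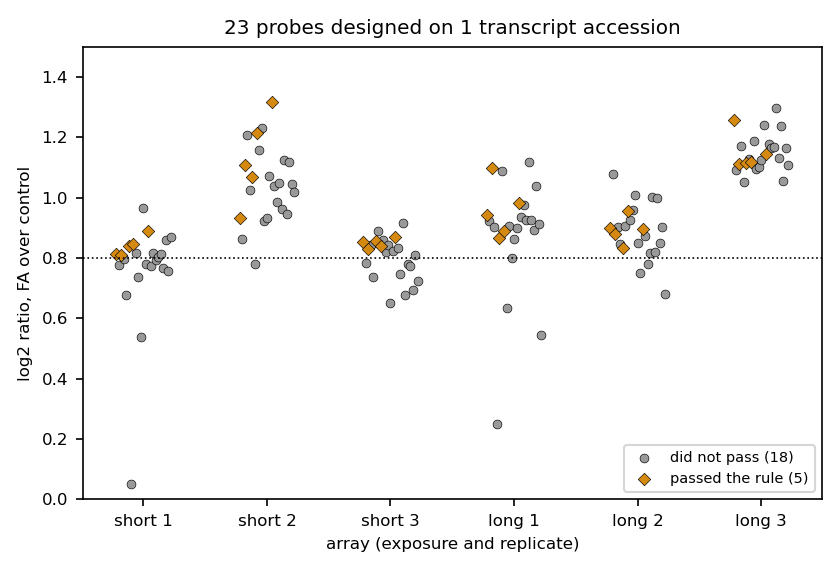
Log2 ratio of FA over control (vertical axis) on each array (horizontal axis) for the 23 probes designed on 1 transcript accession. Orange diamonds are the 5 that passed the rule, grey points the 18 that did not, and the dotted line marks 0.8. The diamonds lie among the other points rather than apart from them.

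The limit of 0.8 divided loci with almost the same values. Just inside were the raffinose synthase Os07g0209100, with a lowest ratio of 0.803, the GST Os10g0530900 with 0.806 and the alpha/beta hydrolase Os02g0706900 with 0.807. Just outside were the GST Os10g0530400 with 0.798, and Os01g0598300 and Os07g0417500 with 0.798 and 0.794, both of which belong to the 23 probes of 1 accession.

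Members were found on all 12 chromosomes. Chromosome 10 held 14 of 850 loci with sufficient FA signal (1.65%), and chromosomes 4 and 5 held 3 of 1359 (0.221%) and 3 of 1347 (0.223%). Fewer than 10 annotated loci lay between the genes of 13 pairs, which involved 23 members. Such pairs were not counted in random sets of as many loci, so their number cannot show that members cluster. Among the pairs was Os02g0484200 with Os02g0485100, and the probe of the latter was designed on the shared accession described above. Besides the GST, acyl transferase, dehydrogenase, peptidase and barwin genes given above, the pairs included Os09g0479800 (phosphofructokinase), Os09g0480200 and Os09g0481200 (described as a photosystem I subunit), with mean ratios of 1.79, 2.34 and 1.64 after short and of 1.99, 2.28 and 1.56 after long exposure. A further probe of Os09g0481200 had means of only 0.06 after short and 0.10 after long exposure. The control signal was well above background on 4 of 6 arrays for Os09g0479800 and on 3 of 6 for Os09g0480200. The lipase gene Os06g0725100 and the chitinase gene Os06g0726200 were another pair.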

How the data were processed

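Roots of water-treated and FA-treated rice seedlings were compared on 6 two-colour Agilent arrays, 3 per exposure, grouped by the sample labels. Per the file headers, the scans were read with Feature Extraction 10.7.1.1, while the methods name another version. The deposited processed intensity of each channel was background corrected, detrended and dye normalized by the authors' software (spots at background level carry a substitute value), and the raw median intensity and local background are deposited beside it. The same software of the authors gave each spot its log10 ratio, FA (red) over control (green), once the dyes had been balanced by a linear and a LOWESS step. A value table deposited by the authors holds log2 ratios, which lay within 1e-04 of those of the processed signals in all 41882 probes with 1 spot that were compared on each array.

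Control spots were left out, the log10 ratio was converted to log2 and spots of 1 probe were averaged. A locus took its member probe with the highest mean signal. For tests, spots with a flag for non-uniformity or for a population outlier (89 to 1074 per array) were also left out, and a probe had to reach a processed signal of 100 on 1 or more arrays, whichever the channel, and to have a value on at least 2 arrays of each exposure. Short minus long, and for gene lists the mean ratio of each exposure, were fitted with limma 3.58.1 (lmFit, eBayes; R 4.3.3), with Benjamini-Hochberg adjustment over all tested probes. Calls required an adjusted p under 0.1 and a difference of at least 1 on the log2 scale, the limits of the methods. The SE is the moderated one of limma. The fit was tested on simulated data in which 200 probes were changed. An exact permutation test of 3 against 3 arrays cannot go below 0.1 and was not used. The number of arrays limits the precision.

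Replicate numbers were not treated as pairs, because deviations of same-numbered arrays correlated at -0.08, -0.01 and 0.14. No slide held both exposures. The alternatives were the value table, normexp background correction (offset 50) with loess, centred arrays, other limits on ratio and signal, flags and background, a replicate block, slide as a random block, other filters, probe rules and tests, and each array left out. Counting loci of 1 shared accession once was added after the data were seen.

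Descriptions came from the paper's supplementary tables. In 1 of them, for genes raised after short exposure, 0 of 207 descriptions matched those of other tables as given and 207 of 207 matched once its descriptions were put in locus order, which was done here. Family lists were those of the supplementary tables. The members and lists were chosen with earlier results of these data known. Named were the 10 members with the highest lowest ratio, the 5 with the largest and the 5 with the smallest short minus long, members of the detoxification, defence, signalling and transcription factor lists (of lists with over 5, the 5 highest), all called members, members under 10 loci apart, and the 3 loci on each side of the limit. Other loci were named after their values were seen. Probe sequences, promoters and genome coordinates were not used here, and the RT-PCR and staining measurements were not analysed here. Files were read with version 1.17.8 of data.table, pandas 2.3.3 and numpy 2.4.6 in Python 3.11.15, and figures were drawn with matplotlib 3.10.9.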

Additional observations from a re-analysis of the deposited data

Results flagged for a closer look

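The following members had ratios of FA over control that differed between the exposures (limma, short minus long, log2 scale, 3 arrays each). Higher after short exposure were the GSTs Os10g0525600 (3.63), Os10g0481300 (3.34), Os10g0527800 (2.12), Os10g0530900 (1.48) and Os10g0531400 (1.00), the cinnamyl alcohol dehydrogenase Os09g0400400 (3.20), the acyl transferases Os08g0112200 (2.28) and Os02g0484200 (1.44), and the glycoside hydrolase Os09g0511600 (2.27). The same held for the aldolase Os08g0120600 (3.29), the lipase Os06g0725100 (2.22), the AAA ATPase Os07g0192000 (2.11), the carbohydrate-binding Os01g0893700 (1.50) and the F-box protein Os02g0671100 (1.20).

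Among regulators they were Os01g0685400 (2.78), Os01g0955100 (2.46), Os11g0506800 (1.50) and Os07g0550400 (1.14). Among loci with no named function they were Os05g0164400 (3.00), Os02g0774200 (2.20), Os01g0639600 (1.97), Os07g0410300 (1.88), Os03g0802200 (1.87), Os09g0364400 (1.38) and Os09g0362800 (1.33). Lower after short exposure was the barwin gene Os11g0592000 (-1.18). No slide held both exposures, so slide and exposure cannot be told apart in these values.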

How the results depend on the processing

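The number of members followed the rule. It was 88 with normexp and loess (82 of them shared with the 136), 65 with a ratio of at least 1, 61 with a signal of at least 100 in both channels and 280 with no limit on the FA signal, and it ranged from 137 to 193 when 1 array was left out. Members called higher after short exposure numbered 23 to 28 under every alternative, except for 45 with no fold limit. Members called lower numbered 2 with normexp and 12 with no fold limit, and 0 to 3 when 1 array was left out, with 0 without short replicate 1. The shares of all tested probes with no fold limit were not counted. The median difference ranged from 0.11 to 0.19 and, when 1 array was left out, from 0.01 (without short replicate 2) to 0.18.

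Of 952 values of the 68 named differences, 0 reversed a call, 9 lost it and 18 gained it, and 31 uncalled ones changed sign. The lost calls were those of Os02g0484200, Os07g0550400 and Os10g0531400 with normexp, of Os09g0362800 with no signal filter, of Os10g0531400 with the median of its probes and without short replicate 2, long replicate 2 or long replicate 3, and of Os11g0592000 without short replicate 1. With the replicate number as a block, as for paired arrays, 25 members were called higher and 1 lower, and no named call changed. The same counts were found with slide as a random block (correlation -0.10).

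After long exposure, GSTs called higher numbered 4 with the methods' t-test and 5 to 11 when 1 array was left out, and those called lower 1 to 3. Yieldins called higher numbered 0 with that t-test. Protein kinases called higher numbered 1 with normexp, 1 with that t-test and 3 to 5 when 1 array was left out, and those called lower 5 with normexp and 7 to 14 when 1 array was left out. After short exposure, protein kinases called lower numbered 8 with normexp. The counts over all tested loci at these settings are not given here. A change in a list and a change over the whole array can therefore not be told apart, and the cause of these changes was not tested. Low control signals limit the ratios of 51 members.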
